A study of Mus musculus with 6 samples.

Results

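Immediate early genes are the genes that cells switch on within minutes of a stimulus, before any new protein has to be made. They were described here in HL-1 cells, a line of cardiomyocytes from a mouse atrial tumour, after low oxygen. The set held 37 genes, chosen as a list of names: the FOS, JUN, EGR, NR4A, KLF, DUSP and IER families, and a group of related fast-response genes. All 37 had at least 1 probe set among the 18193 genes named on the array, and each was represented by its probe set with the highest mean log2 signal. The 3 hypoxia samples were confluent HL-1 cells kept at 1% oxygen for 8 hours, and the 3 normoxia samples were the same cells kept at 21% oxygen for 8 hours. The labels name no other treatment, and say that the cells were grown by the standard protocol of the line. Each sample was measured on 1 Affymetrix array. Whether the replicates were separate cultures is not stated, and p-values therefore reflect only how far these arrays differ, possibly for technical reasons. HL-1 is 1 immortal line that still divides, which limits it as a model of resting heart muscle.

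In many cells a growth factor, stretch, calcium or stress signal runs through MAP kinases to factors that already sit on immediate early promoters, among them serum response factor (SRF), which binds the CArG box, and CREB, which binds the cAMP response element. The first products are transcription factors such as FOS, JUN and EGR1, with brakes such as the DUSP phosphatases and the RNA-binding protein ZFP36, so that transcripts usually rise and decay quickly. In heart muscle these genes are known as early responders to stretch, hypertrophic hormones and ischaemia. The arrays hold a single time point, and no earlier one was analysed here.

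In hypoxia Ier3 and Fos rose, and 0 of the members fell. By family, the median log2 fold change of the tested genes was 1.17 for FOS (2 genes), 0.68 for ATF3 and the small MAF proteins (3), 0.65 for IER (3), 0.63 for the other signalling and stress genes (3), 0.60 for KLF (3), 0.53 for JUN (3), 0.30 for DUSP (3), 0.16 for BTG and ZFP36 (4), -0.30 for NR4A (2) and -0.39 for EGR (2). With so few genes each, these medians rest on single arrays in places: without hypoxia replicate 1 the EGR genes Egr1 and Egr3 were at 0.19 and -0.07, and without normoxia replicate 2 the NR4A genes Nr4a1 and Nr4a2 were at 0.014 and -0.24. Each median of 3 genes was the value of 1 gene: Atf3, Ier2, Gadd45b, Klf4, Jund and Dusp6, in the order given. Ier2 was a dim gene that passed the brightness filter described next only through its hypoxia arrays. Of the 37 genes, 28 were bright enough to be tested, which means a geometric mean signal over 14.1, the median of all probe sets. By limma, at a Benjamini-Hochberg adjusted p under 0.05 over all probe sets tested, 2 of the 28 were higher in hypoxia, where 0.662% of the 11332 genes tested were, and 0 were lower, where 0.0882% were. At an unadjusted p under 0.05, 12 were higher, where 6.13% of all genes were, and 0 were lower, where 6.3% were. In 10 members all 3 hypoxia arrays lay above all 3 normoxia arrays, as in 8.16% of all genes, and in 0 members all lay below, as in 9.91%. Both the 12 and the 10 include Maff, which was bright enough to be tested only through its hypoxia arrays. The median log2 fold change of the 28 was 0.41, against -0.04 for all genes tested. With no filter on dim probe sets, all 37 had a median of 0.39, against -0.05 for 18193 genes.

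**Figure D1:**
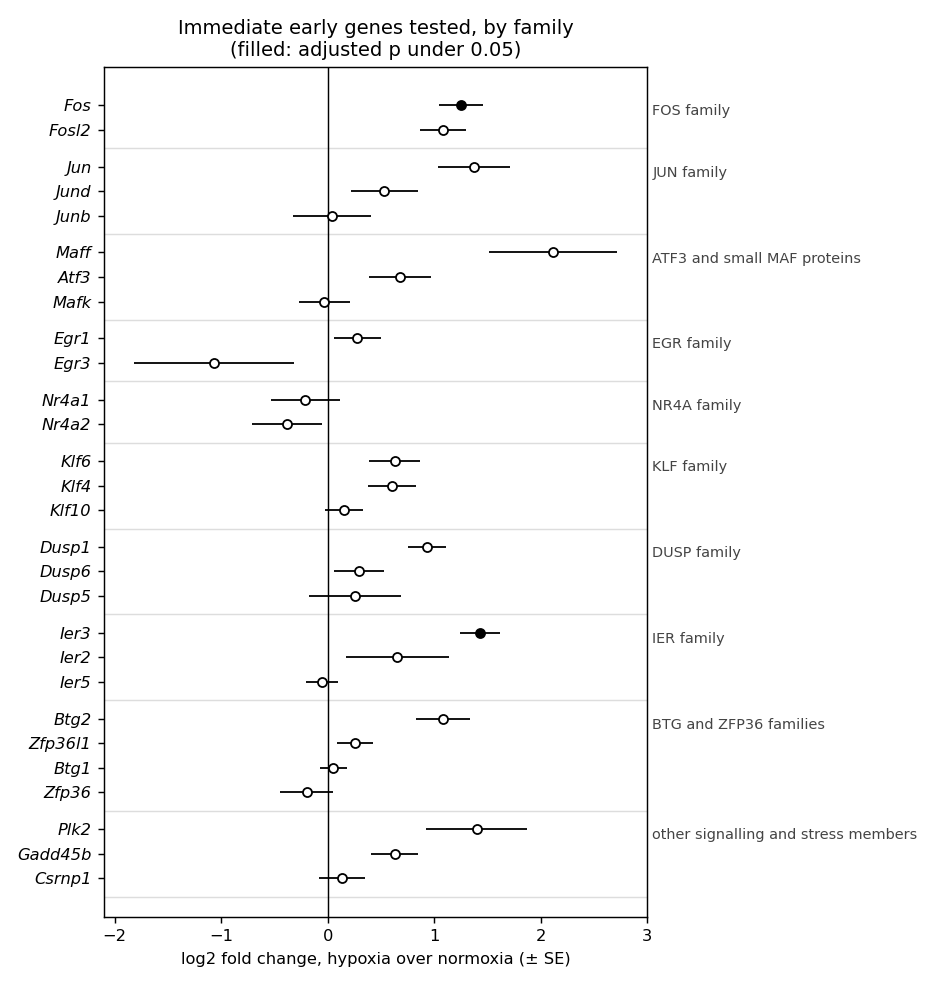
Log2 fold change, hypoxia over normoxia, of the 28 members tested, with the standard error of limma as bars, grouped by family. Filled points passed at an adjusted p under 0.05. Fos at 1.25 and Ier3 at 1.43 are filled, and Egr3 at -1.07 lies farthest to the left.

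The 6 arrays shared a trimmed mean signal of 99.5, with median signals between 15 and 19. The 10 genes taken as a check of the oxygen labels were chosen with earlier results of these data known, so the check is not independent. Of these genes 9 were higher and 0 lower, against 0.662% and 0.0882% of all genes tested. In all 10 every hypoxia array lay above every normoxia array, as in 8.16% of all genes. They were led by the glucose transporter Slc2a1 (log2 fold change 2.08, limma adjusted p = 0.00038), Higd1a (1.65, 0.00123) and Bnip3 (2.87, 0.00138), and Vegfa (1.23, 0.0924) did not pass. The summed signal of 14 atrial cardiomyocyte markers was 34807 to 36647 in hypoxia and 36285 to 38468 in normoxia, with the atrial connexin Gja5 and potassium channel Kcna5 at signals of at most 14.1 on any array. Of the marker lists 0 genes passed in limma. At an unadjusted p under 0.05, 12 tested atrial markers had 2 higher and 1 lower. Of 5 tested smooth muscle markers 2 were higher, of 3 tested macrophage markers 1 was, and of the other lists 0 were either. Over all genes tested 6.13% were higher and 6.3% lower. The brightest gene of each lay at 0.00346 log2 for Myl7 (atrial), 0.27 for Col3a1 (fibroblast), 0.00548 for Vwf (endothelial), 0.07 for Acta2 (smooth muscle), -0.13 for Csf1r (macrophage), -0.49 for Cd8a (T cell) and 0.02 for Map2 (neuron). Other markers lay farther from 0. Tested genes ran from -0.46 to 0.88 log2 for atrial, -0.98 to 0.90 for fibroblast and 0.00548 to 0.16 for endothelial markers. They ran from -0.38 to 0.49 for smooth muscle, -0.22 to 1.14 for macrophage and -0.33 to 0.27 for neuron markers. Summed signals of the other lists overlapped between the groups: fibroblast 132.5 to 259.4 in hypoxia against 149.5 to 160.8 in normoxia, endothelial cell 158 to 236.5 against 173.4 to 224.3, macrophage 98.8 to 134.6 against 83.9 to 138.1, T cell 30.5 to 58.7 against 48.9 to 55.7, neuron 67.5 to 90.1 against 69 to 89.2, and smooth muscle cell 12876 to 15883 against 12238 to 14073. In RNA from a whole dish, fewer cells of one kind and less RNA per cell cannot be told apart.

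The promoters of the called genes are shown first, from RefSeq on GRCm38.p6, each from 250 bases before to 50 after the start site, 5′ to 3′. A window was found for 31 of the 37 members, so that Fosl1, Egr1, Egr3, Klf10, Dusp4 and Ier2 were not searched for any motif. The motifs searched on both strands were the CArG box by its name, the cAMP response element TGACGTCA, the AP-1 site TGANTCA and the hypoxia response element core ACGTG, and no motif contains another. In the lines that follow, capitals mark a match to any of the 4. The Fos window (chr12:85473640-85473939, plus strand) held 0 matches and that of Ier3 (chr17:35821463-35821762, plus strand) held 1 hypoxia response element core.
Fos: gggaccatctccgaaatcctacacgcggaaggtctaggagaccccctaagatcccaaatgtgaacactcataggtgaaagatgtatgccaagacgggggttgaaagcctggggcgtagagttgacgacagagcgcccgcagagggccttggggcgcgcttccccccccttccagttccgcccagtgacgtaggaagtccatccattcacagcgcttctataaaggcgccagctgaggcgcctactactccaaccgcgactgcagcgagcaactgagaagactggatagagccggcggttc
Ier3: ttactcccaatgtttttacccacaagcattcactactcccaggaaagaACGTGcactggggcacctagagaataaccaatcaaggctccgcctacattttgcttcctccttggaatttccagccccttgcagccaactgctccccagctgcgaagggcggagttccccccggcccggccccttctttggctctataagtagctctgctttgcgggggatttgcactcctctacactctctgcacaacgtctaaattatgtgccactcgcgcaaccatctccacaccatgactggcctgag
A match describes letters and not a bound site, and no match says only that these letters are not in this window.

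The full cAMP response element stood in the windows of 4 of the 31 members, against 2.03% of all genes. These were Btg2, Dusp1, Maff and Plk2, whose log2 fold changes, given with their arrays further on, were 1.08, 0.93, 2.12 and 1.40. None of the 4 passed (limma adjusted p = 0.125, 0.0613, 0.212 and 0.307), and the groups of Plk2 overlapped. The stretches around the element are set out below with 15 bases on either side and the element in capitals, so that the same 8 letters can be seen in different surroundings.
Btg2 (chr1:134079299-134079336, minus strand): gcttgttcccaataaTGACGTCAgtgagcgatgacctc
Dusp1 (chr17:26508593-26508630, minus strand): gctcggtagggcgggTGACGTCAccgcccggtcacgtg
Maff (chr15:79347476-79347513, plus strand): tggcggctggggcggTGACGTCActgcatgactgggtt
Plk2 (chr13:110394967-110395004, plus strand): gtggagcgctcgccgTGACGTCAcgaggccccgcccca
A CArG box stood in the windows of 3 of the 31 members searched, Egr1 and Egr3 not being among the 31, against 1.81% of all genes. Of these, Dusp5 and Zfp36 had log2 fold changes of 0.26 and -0.20, neither of which passed, and Egr2 was too dim to be tested. The boxes of Dusp5 and Zfp36 are shown in capitals, those of Egr2 are not shown as it has no fold change, and a further box of Dusp5 follows directly downstream of the one marked.
Dusp5 (chr19:53529048-53529087, plus strand): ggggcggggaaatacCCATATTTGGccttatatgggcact
Zfp36 (chr7:28379262-28379301, minus strand): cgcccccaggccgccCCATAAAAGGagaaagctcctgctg
The AP-1 site stood in 2 windows, those of Csrnp1 and Zfp36l1 (8.97% of all genes), and the hypoxia response element core in 14 (21.8% of all genes). The motif matches were set beside the fold changes after the values were known, and no test was made.

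The FOS proteins pair with JUN proteins to form the transcription factor AP-1. Fos had signals of 157.6, 129.6 and 121.4 on the hypoxia arrays, against 55.3, 47.5 and 69.7 on the normoxia arrays. Every hypoxia array lay above every normoxia array, with 121.4 as the lowest hypoxia value and 69.7 as the highest normoxia value. Fos averaged 136 ± 19.0 in hypoxia and 57.5 ± 11.3 in normoxia (SD, n = 3 each) and rose 2.38-fold (log2 fold change 1.25, SE 0.21, limma adjusted p = 0.03). The call was lost when hypoxia array 1 (adjusted p = 0.199), hypoxia array 2 (0.105), normoxia array 2 (0.115) or normoxia array 3 (0.0617) was left out. It was also lost with a variance prior that ignores signal (0.118) and with a replicate block (0.0695). Adjusted p ran from 0.0134 to 0.199 over 16 alternatives, and Fos was too dim to be tested with the filter at the 75th percentile.

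Fosl2, a FOS relative that also pairs with JUN, had 143.7, 160.2 and 152.7 in hypoxia, against 87.1, 53.2 and 80 in normoxia. The groups were apart, with a log2 fold change of 1.08 (SE 0.21, limma adjusted p = 0.0628) that did not pass. It passed without normoxia replicate 1, its highest normoxia array (adjusted p = 0.0378), in a range over all alternatives of 0.0243 to 0.454. Its other probe set, with 25.7, 27.8 and 20.2 in hypoxia against 43.7, 26.2 and 13.8 in normoxia, lay at -0.04 log2 (adjusted p = 0.979), so the probe sets of Fosl2 disagree.

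Fosb and Fosl1, the remaining FOS genes, were too dim to be tested. Fosl1 had 6, 24.3 and 26 in hypoxia and 2.5, 1.5 and 8.3 in normoxia, and Fosb lay between 0.9 and 7.9 on all 6 arrays. The arrays of both genes overlapped between the groups.

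Of the JUN genes, Jun itself had the larger difference. It showed 208.5, 125.3 and 73.2 in hypoxia, against 44.6, 56.3 and 43.5 in normoxia. The hypoxia arrays were all higher but lay far apart from each other, and the log2 fold change of 1.38 (SE 0.34) did not pass (limma adjusted p = 0.141). A further probe set of Jun gave 67.3, 49.1 and 65 in hypoxia against 21.5, 27.8 and 19.6 in normoxia. Its difference was 1.40 log2 (SE 0.26, adjusted p = 0.0579), so both probe sets of Jun lay in the same direction with no overlap. Jun passed without hypoxia replicate 3, its lowest hypoxia array (adjusted p = 0.0184), and for the mean of both probe sets (0.0497). The range over all alternatives was 0.0184 to 0.475.

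Junb, which can oppose JUN on some promoters, had 73, 95 and 32.7 in hypoxia against 46.2, 66.6 and 68.1 in normoxia. Jund, the JUN protein present in most resting cells, had 495.3, 573.9 and 246.9 against 210.2, 384.4 and 287.3. In both genes hypoxia replicate 3 was the lowest hypoxia array. In Junb it lay below every normoxia array and in Jund inside the normoxia range. Their log2 fold changes were 0.04 (95% confidence interval -0.79 to 0.86) and 0.53 (-0.18 to 1.24), and neither passed (limma adjusted p = 0.979 and 0.583).

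Atf3 and the small MAF proteins are leucine zipper factors that join the same network, ATF3 as a stress-induced partner and often a repressor, and MAFF and MAFK as partners without an activation domain. Maff had 42.5, 34.4 and 42.2 in hypoxia, against 5.4, 26.3 and 5.3 in normoxia. All hypoxia arrays were above all normoxia arrays, but normoxia replicate 2 was close to them, and the other normoxia arrays were under the level of the filter, so that Maff passed the filter through its hypoxia arrays. Its log2 fold change of 2.12 (SE 0.60) did not pass (limma adjusted p = 0.212). Without normoxia replicate 2 it was 2.88 and passed (adjusted p = 0.0267), in a range over all alternatives of 0.0267 to 0.582. That was its highest normoxia array, whose removal favours a pass, and Maff passed under no other alternative.

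Atf3 had 63.4, 40.9 and 57.8 in hypoxia, against 29.6, 46 and 26.6 in normoxia. The groups overlapped by 1 array on each side, and the log2 fold change of 0.68 (SE 0.29) did not pass (limma adjusted p = 0.434). Mafk had a log2 fold change of -0.03 (95% confidence interval -0.56 to 0.50), with 75.6, 107.9 and 75.7 in hypoxia and 70.9, 114.6 and 80.9 in normoxia, so that the arrays of the groups were interleaved.

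The EGR proteins are zinc finger factors that follow growth and stretch signals in muscle. Egr1, the family member most often used as a marker of the immediate early response, had 99, 100.6 and 65.9 in hypoxia against 62.7, 73.6 and 79.6 in normoxia. Of the hypoxia arrays, 2 lay above all normoxia arrays and hypoxia replicate 3 lay low within them. The log2 fold change was 0.28 (95% confidence interval -0.22 to 0.78, limma adjusted p = 0.683). Egr3 had 3.4, 25.7 and 28 against 25.8, 19.5 and 44.7. Its difference of -1.07 log2 (SE 0.75, adjusted p = 0.644) turned on hypoxia replicate 1, without which it was -0.07 (adjusted p = 0.973). Egr3 passed the filter through its normoxia arrays, its hypoxia geometric mean of 13.5 being under the filter level. Egr2 lay between 1.5 and 10.2 on all arrays and was not tested.

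The NR4A genes encode orphan nuclear receptors that are switched on by calcium and cAMP. Nr4a1 had 42.9, 51.8 and 36 in hypoxia against 30.3, 68.2 and 60.1 in normoxia, with a log2 fold change of -0.21 (95% confidence interval -0.94 to 0.51). Nr4a2 had 21.1, 23.5 and 24.4 against 36, 36.2 and 20.4, with a log2 fold change of -0.38 (-1.11 to 0.36). Neither passed (limma adjusted p = 0.848 and 0.714), and the groups overlapped in both. Nr4a3 lay between 8.3 and 21.2 and was not tested, although a dimmer probe set of it gave 9.3, 14 and 17.3 in hypoxia against 0.9, 4.8 and 2.4 in normoxia. A dim probe set of Nr4a2 did likewise, with 13.2, 17.2 and 16.3 against 3.4, 1.9 and 3.3. These probe sets were picked out after their values were seen, and the brighter probe sets of both genes do not show the same difference.

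The KLF genes encode zinc finger factors of growth arrest and stress. Klf4 had 98.1, 129 and 107.3 in hypoxia, against 96.5, 66.4 and 60.3 in normoxia. Klf6 had 66.1, 83.8 and 55 in hypoxia, against 36.3, 45.3 and 50.1 in normoxia. In both genes the groups were apart by a narrow margin, with log2 fold changes of 0.60 (SE 0.22) and 0.63 (SE 0.24) that did not pass (limma adjusted p = 0.366 and 0.378). All 4 tested probe sets of Klf6 had values above 0, between 0.30 and 0.63, and both of Klf4 did, at 0.36 and 0.60. Klf10, a target of TGF-beta signals, had a log2 fold change of 0.15 (95% confidence interval -0.25 to 0.55). Klf2, best known as a flow-induced factor of endothelial cells, lay between 4.6 and 12.9 and was not tested.

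**Figure D2:**
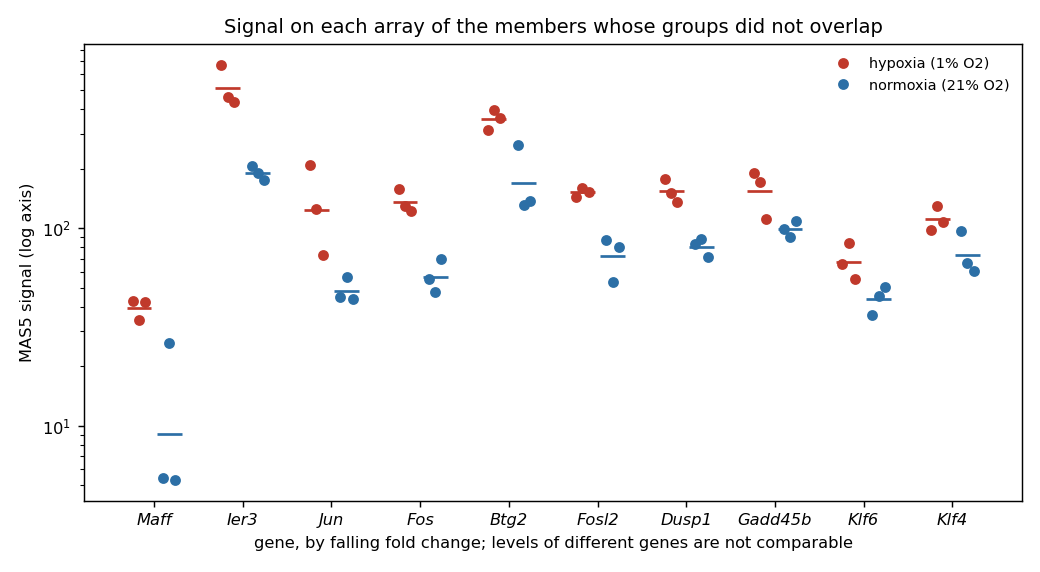
MAS5 signal on a log axis of the 10 members whose hypoxia and normoxia arrays did not overlap, 3 arrays per group, with bars at the geometric means. Fos and Ier3 have a wide gap between the groups, Klf4 and Gadd45b a narrow one, and Maff has 1 normoxia array at 26.3 near its hypoxia arrays.

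The DUSP genes encode phosphatases that switch MAP kinases off and so limit the response. Dusp1 had 178, 151.4 and 135.5 in hypoxia, against 82.9, 88.2 and 71.5 in normoxia. The groups were well apart and the within-group SD of 0.18 on the log2 scale was below the 0.25 that limma fitted for this signal. The log2 fold change of 0.93 (SE 0.18) did not pass (limma adjusted p = 0.0613). It passed after quantile normalization (adjusted p = 0.0446), after median centring (0.0427) and with the filter at the 75th percentile (0.0458), in a range over all alternatives of 0.0118 to 0.298.

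Dusp6, a cytoplasmic phosphatase of ERK, had 69.6, 102.7 and 74.9 in hypoxia and 84.1, 57.9 and 59.4 in normoxia, with a log2 fold change of 0.30 (95% confidence interval -0.23 to 0.82). Dusp5, a nuclear phosphatase of ERK, had 74.6, 61.1 and 21.8 in hypoxia and 37.8, 49.4 and 31.1 in normoxia, with a log2 fold change of 0.26 (-0.70 to 1.22). Neither passed, and in Dusp5 hypoxia replicate 3 was below every other array. Dusp2 lay between 3.8 and 31.4 and Dusp4 between 0.9 and 14.7, and neither was tested.

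Among the IER genes, short-lived products of serum and stress, only Ier3 passed. Ier3, a regulator of cell survival, had 671.5, 460.4 and 435.5 in hypoxia, against 207, 189.5 and 174.2 in normoxia. The lowest hypoxia array was above the highest normoxia array by far more than the spread in normoxia. The hypoxia arrays themselves lay far apart, from 435.5 to 671.5. Ier3 averaged 522 ± 130 in hypoxia and 190 ± 16.4 in normoxia (SD, n = 3 each) and rose 2.70-fold (log2 fold change 1.43, SE 0.19, limma adjusted p = 0.00877, 95% confidence interval 1.02 to 1.85). The call was lost when normoxia array 3 was left out (adjusted p = 0.0617) and with a variance prior that ignores signal (0.102), and held in the other 15 of 17 alternatives, where the lowest adjusted p was 0.00122.

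Ier2 was dim, with 13.9, 27.1 and 15.4 in hypoxia and 9.1, 17.1 and 9.6 in normoxia, and differed by 0.65 log2 (SE 0.48, limma adjusted p = 0.659). It too passed the filter through its hypoxia arrays. Ier5 had 215.7, 222.7 and 206.1 in hypoxia and 250.8, 209.2 and 211.7 in normoxia, a log2 fold change of -0.06 (95% confidence interval -0.39 to 0.28), the smallest within-group SD of the 28 members (0.11 on the log2 scale) and interleaved arrays. A test of Ier3 against Ier5 was not made.

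The BTG genes restrain cell division, and ZFP36 and ZFP36L1 bind AU-rich transcripts, including those of other immediate early genes, and promote their decay. Btg2 had 315.3, 396.5 and 362.7 in hypoxia, against 264.1, 131.2 and 137.9 in normoxia. The groups were apart, but normoxia replicate 1 was nearly as high as the lowest hypoxia array, and the log2 fold change of 1.08 (SE 0.26) did not pass (limma adjusted p = 0.125). Its other probe set was also free of overlap, at 123.4, 162.8 and 148.8 against 97.4, 102 and 82.3 (log2 fold change 0.62, adjusted p = 0.229). Without normoxia replicate 1, its highest normoxia array, the first was 1.41 and passed (adjusted p = 0.00596). The range over all alternatives was 0.00596 to 0.482.

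Btg1 had 940.4, 728 and 798.5 in hypoxia and 774.7, 807.3 and 782.7 in normoxia, with a log2 fold change of 0.05 (95% confidence interval -0.23 to 0.34). Zfp36 had 66.5, 92.3 and 61.9 against 73.1, 111.3 and 70.5 (log2 fold change -0.20, 95% confidence interval -0.75 to 0.35). Zfp36l1 had 507.8, 384.7 and 331.3 against 319.7, 333.2 and 356 (0.26, -0.13 to 0.64), while its other probe set was at -0.48 (limma adjusted p = 0.689). In all 3 genes the groups overlapped, and none passed.

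Of the remaining members, Gadd45b, a stress sensor that acts on MAP kinase signalling, had 190, 170.7 and 110.9 in hypoxia, against 99, 90.4 and 108 in normoxia. The lowest hypoxia array was only just above the highest normoxia array, and the log2 fold change of 0.63 (SE 0.22) did not pass (limma adjusted p = 0.331). A second probe set, at 124.8, 110.6 and 143.7 against 90.2, 64.2 and 57.8, differed by 0.86 log2 with no overlap (adjusted p = 0.156), and the third one of 0.26.

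Plk2, a polo-like kinase of stressed cells, had 104.8, 155.3 and 185.5 in hypoxia, against 125.7, 26.9 and 48.4 in normoxia. Normoxia replicate 1 lay above the lowest hypoxia array, and the log2 fold change of 1.40 (SE 0.47) did not pass (limma adjusted p = 0.307). Without normoxia replicate 1, its highest normoxia array, it passed (adjusted p = 0.0205), and under no other alternative. The range over all alternatives was 0.0205 to 0.676. Csrnp1, a nuclear protein induced by axin, had a log2 fold change of 0.14 (95% confidence interval -0.35 to 0.62), while its other probe set lay at -0.56, with all hypoxia arrays below all normoxia arrays (adjusted p = 0.616). Csrnp1 itself had 69.9, 85.6 and 64.9 in hypoxia and 71.3, 77 and 53.4 in normoxia. Rgs2, an inhibitor of G protein signals, lay between 1.1 and 28.7, and Plk3 between 2.1 and 26.6, and neither was tested. Of the 9 members that were too dim, 6 had the higher mean in hypoxia and 3 in normoxia. Their signals lay between 0.9 and 31.4, and the groups overlapped in all 9. Other dim genes were not counted beside them, so the 6 are not read as a rise.

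Where a member had more than 1 tested probe set, the probe sets were compared. Of 11 such genes, 7 had all their probe sets on one side of 0 and 4 did not, namely Fosl2, Ier5, Zfp36l1 and Csrnp1. Of the 15 tested probe sets that did not represent their gene, 0 passed in limma, and 11 had the sign of the brightest one. Fos and Ier3 each had a single probe set, so their calls could not be compared with another one.

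**Figure D3:**
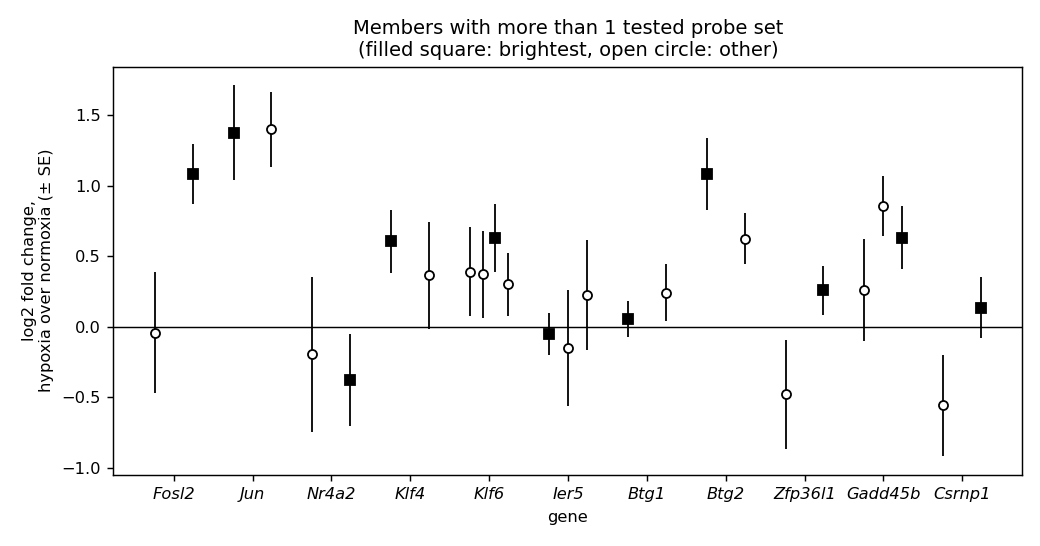
Log2 fold change, hypoxia over normoxia, with standard error, of every tested probe set of the 11 members that had more than 1. Filled squares are the brightest probe set of a gene and open circles the others. Both probe sets of Jun lie near 1.4, while those of Fosl2 lie at 1.08 and -0.04.

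By the median, the members varied more between arrays of one group than all genes tested did, though this did not hold for each member. Their median within-group SD was 0.316 on the log2 scale, against 0.243 for all genes tested. For 19 of the 28, or 67.9%, the SD was above the value that limma fitted for the gene's signal, as it was for 47% of all genes. The ratio was highest for Plk2 (3.24), Jund (2.74), Egr3 (2.45), Dusp5 (2.11), Junb (2.07) and Jun (2.04). Ier3 had a ratio of 1.25 and Fos of 0.92, and their SDs lay at percentiles 47 and 43 of all probe sets tested. The arrays did not contribute evenly. Hypoxia replicate 3 was the lowest hypoxia array for 16 of the 28 members and the highest for 3, while over all genes it was the lowest in 37.4% and the highest in 37.1%. Hypoxia replicate 2 was the highest for 15 and the lowest for 3, against 35.5% and 32.9% of all genes. In normoxia, replicate 2 was the highest for 14 members and the lowest for 8, against 31.7% and 36.3% of all genes.

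The median deviation of the 28 members from their group mean was 0.02, 0.16 and -0.18 log2 on hypoxia arrays 1 to 3 and -0.05, 0.09 and -0.11 on normoxia arrays 1 to 3. Over all genes tested these medians lay between -0.01 and 0.02 on the 6 arrays. Without hypoxia replicate 3 the members' median log2 fold change was 0.62, with 3 members higher (Fos, Jun and Ier3), and without hypoxia replicate 2 it was 0.29, with 1 member higher. The part of single arrays in the calls was measured only by leaving each out.

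**Figure D4:**
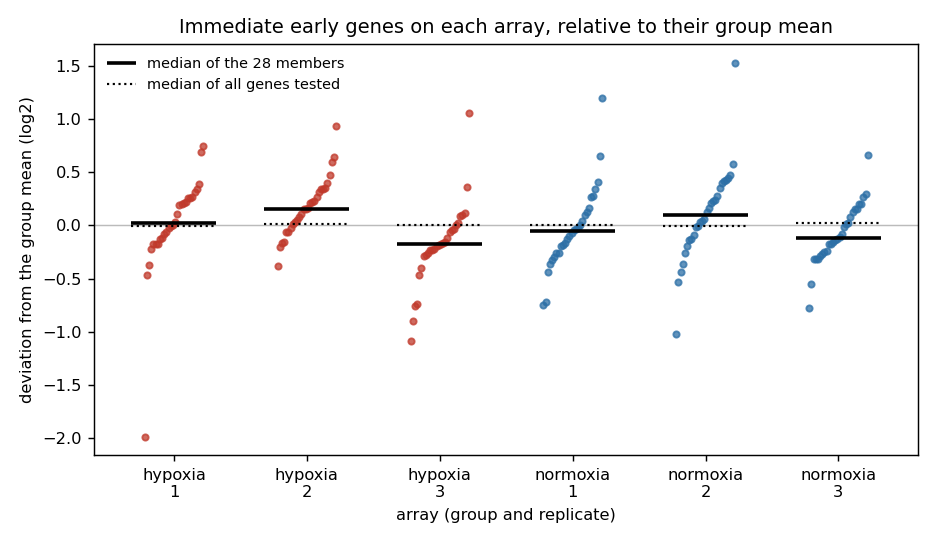
Deviation of each of the 28 members from its own group mean on the log2 scale, array by array, with the median of the members as a solid line and of all genes tested as a dotted line. The members' median is 0.16 on hypoxia replicate 2 and -0.18 on hypoxia replicate 3, while the dotted lines stay near 0.

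**Figure D5:**
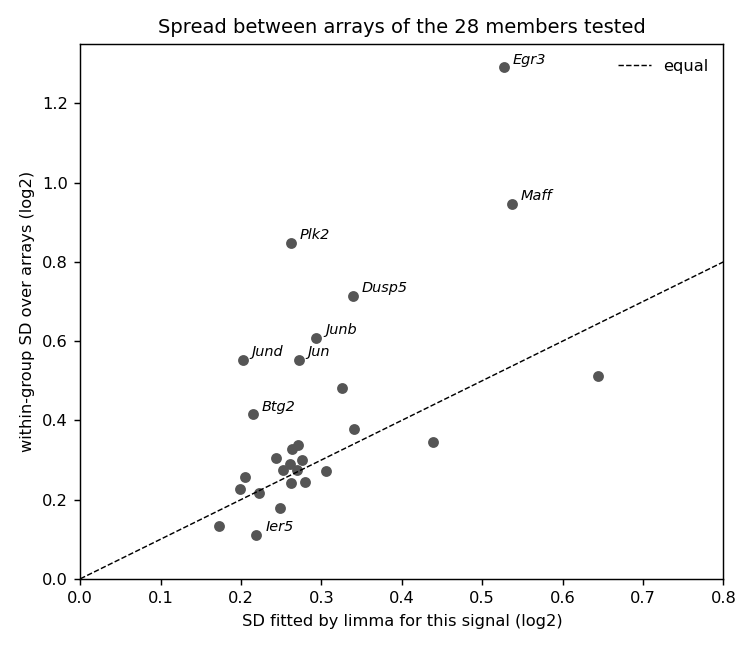
Within-group SD of each of the 28 members over the arrays against the SD that limma fitted for a gene of that signal, both on the log2 scale, with a dashed line where they are equal. Points above the line, 19 of 28, varied more than fitted, with Plk2, Jund and Egr3 well above it.

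Genes that act before and after the members were counted from further lists. Over all genes tested, 0.662% passed as higher and 0.0882% as lower, and 6.13% were higher and 6.3% lower unadjusted. Of 17 tested kinases and receptors that signal to immediate early promoters, 0 passed in limma, with 3 higher and 0 lower at an unadjusted p under 0.05 and a median log2 fold change of -0.04. Map2k1, the kinase MEK1 above ERK, had 632.5, 543.6 and 403.5 in hypoxia and 282.7, 311.1 and 307.6 in normoxia, all hypoxia arrays being higher (log2 fold change 0.79, SE 0.18, adjusted p = 0.102). Of 11 tested factors that bind these promoters 0 passed, with 1 higher and 0 lower unadjusted and a median of -0.11. Creb1, the CREB factor itself, had a log2 fold change of 0.01. Of 9 AP-1 partners and relatives 0 passed, with 1 higher and 1 lower unadjusted and a median of -0.07, and Atf4 was at -0.07.

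Of 33 other rapidly induced genes 0 passed in limma, with 8 higher and 0 lower unadjusted and a median of 0.16. The shares over all genes tested were 6.13% and 6.3% unadjusted. Rhob, a small GTPase, was at 0.29 (adjusted p = 0.769), with hypoxia replicate 3 below hypoxia replicates 1 and 2 as in Jund. Of 11 feedback inhibitors of MAP kinases and EGR proteins 0 passed, with 1 higher and 0 lower unadjusted and a median of 0.05, and Nab1, a corepressor of EGR proteins, was at -0.22. Of 14 later targets of AP-1, EGR and SRF, 1 was higher and 0 lower, with 6 higher and 0 lower unadjusted and a median of 0.27. The gene that rose was Ccn1, a matricellular protein, with 331.9, 517.3 and 566.4 in hypoxia against 238.5, 143.7 and 178.2 in normoxia (log2 fold change 1.33, SE 0.24, adjusted p = 0.0485), while Actb was at 0.07 (adjusted p = 0.834). The call of Ccn1 was close to the threshold and was not followed through the alternatives. These lists differ in how bright and how variable their genes are, and no list was tested against another.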

How the data were processed

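The values were the authors' deposited intensity per probe set and array on a linear scale, made with MAS5 per the submitters' processing notes. Its version is not stated in the sources used here. With 6 arrays, precision is limited by their number. The table held 45037 probe sets and 10 values of 0, which were set to 0.1, the smallest signal above 0, before log2.

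Probe sets above the median of mean log2 signal (22518) were tested with limma 3.58.1 in R 4.3.3 (lmFit, eBayes with trend, two-sided), hypoxia against normoxia without covariates, and adjusted by Benjamini-Hochberg over all of them. The procedure was run on simulated data with independent normal values drawn from limma's own fit. Such data lack the uneven arrays seen here, so the run does not check the calls. Intervals use limma's moderated SE. The smallest exact permutation p for 3 arrays per group is 0.1. Names came from the platform annotation of 2016, using the 34945 probe sets with 1 symbol (932 had several and 9160 none).

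The members, lists, motifs and tests were chosen with earlier results of these data known. All members are named. Of other lists the up to 3 genes with the smallest adjusted p that passed and the brightest that did not are named. Gja5 and Kcna5 were chosen after their values were seen. Alternatives covered scaling, an offset of 2.9, filters, variance models, array weights, a replicate block, probe set choice and each array left out.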

Additional observations from a re-analysis of the deposited data

How the results depend on the processing

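The number of members higher in hypoxia, 2 as reported, was 4 after median centring, 6 with array weights, 1 with the replicate block and 0 with eBayes without trend, and 0 to 5 with 1 array left out (0 without normoxia replicate 3, 5 without normoxia replicate 1). No member was lower under any of the 17 alternatives. The replicate block lost Fos (adjusted p = 0.0695). Deviations of same-numbered arrays correlated at -0.1, 0.246 and -0.17 over all genes, and those of differently numbered arrays at -0.336 to 0.375. Deviations from a mean of 3 arrays depend on each other, so these values cannot decide whether the arrays were paired. The main fit did not treat the arrays as pairs. Over all genes, 75 were higher and 10 lower. After median centring these were 113 and 4, with array weights 197 and 80, with eBayes without trend 7 and 2, with the replicate block 61 and 2, and with 1 array left out 22 to 101 and 1 to 27. Median centring shifted every gene by the same amount, so that the median of all genes was 0.07 in place of -0.04 and the members' 0.52 in place of 0.41. The members' median lay between 0.29 and 0.62 over all alternatives. Of 454 values of single members under the alternatives, 18 had the opposite sign, none of them past the threshold. These were Mafk after quantile normalization (0.022) and median centring (0.081), Ier5 after median centring (0.055) and averaged over its probe sets (0.0068), and Zfp36l1 (-0.11) and Csrnp1 (-0.21) for the mean of their probe sets. With 1 array left out the values ran from -0.28 to 0.49 for Junb, -0.20 to 0.17 for Mafk, -0.57 to 0.014 for Nr4a1, -0.086 to 0.80 for Dusp5, -0.10 to 0.029 for Ier5, -0.048 to 0.14 for Btg1, -0.37 to 0.013 for Zfp36 and -0.022 to 0.24 for Csrnp1. The cause was not tested.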

Other observations

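Outside the members, a few rapidly induced genes and inhibitors of stress signalling had differences of at least 2.30-fold without passing in limma. They were chosen after their values were seen, and no test was added. Tnfaip3, an inhibitor of NF-kappa B signalling, had 107.4, 60.4 and 102.3 in hypoxia against 26.1, 35.1 and 16 in normoxia (log2 fold change 1.83, SE 0.34, adjusted p = 0.0533). Nfil3, a leucine zipper repressor, had 49.1, 60.8 and 39 in hypoxia against 13, 20 and 16.7 in normoxia (1.58, SE 0.31, 0.0627). Dusp16, a phosphatase of JNK and p38, had 109.7, 105.4 and 106.3 in hypoxia against 34.3, 59.6 and 49.3 in normoxia (a 2.30-fold difference, adjusted p = 0.0603). In all 3 genes every hypoxia array lay above every normoxia array, as in 8.16% of all genes tested.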
